A study of Saccharomyces cerevisiae with 4 samples.

Results

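The genes described here encode proteins of the small cytosolic ribosomal subunit of Saccharomyces cerevisiae. Members were the protein-coding genes of build R64 named RPS and a number that had same-strand rows in the pooled table, without RPS9A, RPS9B, RPS14A, RPS14B, RPS22A, RPS22B, RPS28A and RPS28B. The rule gave 48 genes of 6002 annotated open reading frames (ORFs), and 22507 of the 425462 distinct isoforms overlapped a member on its strand. They form 20 paralog pairs and 8 single-copy genes, and 31 of them have an annotated intron in the ORF while 17 have none. RNA came from the MATa strain FSY3636, which carries rrp6::kanMX4 in the S288c background and was grown in YPAD to mid-log phase at an OD of 1. TIF-Seq reads the capped start and the polyadenylated end of the same molecule, and 2 cultures with 2 library preparations each gave 4 libraries that form 1 group. The deposited table holds 1 pooled read count per start and end pair. No wild-type strain was analysed here, so all values are levels in cells without RRP6, the nuclear exosome exonuclease.

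Yeast ribosomal protein genes account for a large part of messenger RNA in growing cells, and most exist as paralog pairs left by an ancient genome duplication. Their transcription depends on growth signals, and Rap1 or Abf1 binds upstream of many of them. Many carry an intron close to the start codon, which makes them a large share of all intron-containing genes in this species. The nuclear exosome, of which Rrp6 is a part, trims and removes nuclear RNA, including unspliced or prematurely ended transcripts.

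The start sites of the 6 members with the most reads are shown because every level and leader length below is counted from such sites. Each stretch runs 5′ to 3′ on the gene's strand, with 15 bases before the most used start, and the capital marks the first base of the RNA. The R64 reference gives them as follows.
RPS3 (chrXIV:302647-302676, plus strand): aactgaaaataaaacAgcaaacaaactaca
RPS2 (chrVII:277504-277533, plus strand): aatcccaaagaaaccGtgttctttatatat
RPS2 second start (chrVII:277580-277609, plus strand): ctataacaaacaaccAataagctcaactaa
RPS11B (chrII:332801-332830, plus strand): tagaggaaacgtatcAagccagggaaaaag
RPS16B (chrIV:307793-307822, minus strand): ttcgaaaaatacagcAagagaataagcaac
RPS10A (chrXV:867043-867072, plus strand): ttattaaggtcgagtAgcaaagtttagcaa
RPS6A (chrXVI:378410-378439, minus strand): ttgcttaagagaagtGacaaaagagtgaag
All 7 begin with a purine that follows a pyrimidine. Over the 47 members with at least 20 covering reads, a median of 92.3% of reads began with a purine and a median of 88.6% had a pyrimidine just before the start. Both were below the medians of large-subunit genes (96% and 93.0%) and of other ORFs (96.7% and 94.1%).

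A read was counted for a gene where its start and end enclosed the ORF from start to stop codon, and is given as CPM, its share of all 1833796 reads scaled to a total of 1000000. Each read joins both ends of a molecule, so CPM was not divided by gene length. Reads may not be independent molecules, and whether recovery depends on molecule length was not tested. Intervals are 95% and cover counting error only; no spread between cultures can be given. RRP6 itself had 0 reads, and the MATa genes MFA1 and MFA2 stood at 1916 and 979 CPM while MF(ALPHA)1, a gene of the other mating type, had 2 covering reads. In a bulk culture, more cells expressing a gene and more RNA per cell cannot be told apart.

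The 48 genes together held 226022 covering reads, which is 12.3% of all reads (Wilson interval 12.3 to 12.4%). Their median was 1613 CPM, with a range from 1.64 to 20188 CPM. The 76 large-subunit genes named RPL had a median of 1448 CPM and took 15.6% of reads, and the 5954 ORFs outside the members had a median of 4.36 CPM. Levels spread widely among proteins that each ribosome carries once. Summed over both copies where there are 2, the 28 proteins had a median of 2865 CPM.

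RPS3, a protein of the head of the subunit at the channel where messenger RNA enters, was the highest member at 20188 CPM (19983 to 20395). RPS2, which lines the same channel from the body, followed at 12465 CPM (12304 to 12628). Both are single-copy genes without introns, and no paired gene reached either of them. RPS11B, at 7156 CPM, was the highest member with an intron. RPS16B, whose protein reaches toward the peptidyl site, had 6054 CPM, and RPS10A, a protein of the beak, had 5845 CPM. RPS6A, whose product is phosphorylated downstream of TOR signalling, had 4855 CPM. RPS12, a protein of the beak, stood at 4788 CPM, RPS23B at 4345 CPM and RPS11A at 3422 CPM, all among the 10 highest members.

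Other single-copy genes were lower. RPS31, made as a fusion with ubiquitin, had 2481 CPM, RPS13 had 1914 CPM and RPS15, near the decoding site, had 1130 CPM (1082 to 1180). RPS20 had 3 covering reads, or 1.64 CPM (0.337 to 4.78), and 4 sense reads in all. That is the level of the limit of 3 counts that an empty gene would allow, so its leader and end were not described. Other low members were RPS27A at 79.1, RPS25A at 221 and RPS25B at 352 CPM. Genes of the head, 20 in number, summed to 61126 CPM, and the 28 genes of the body and platform summed to 62128 CPM. Median levels of these 2 groups were 1711 and 1613 CPM. Both sums cover members only, without the 8 genes left out by the rule, and RPS3 alone gave 20188 CPM of the head sum.

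**Figure D1:**
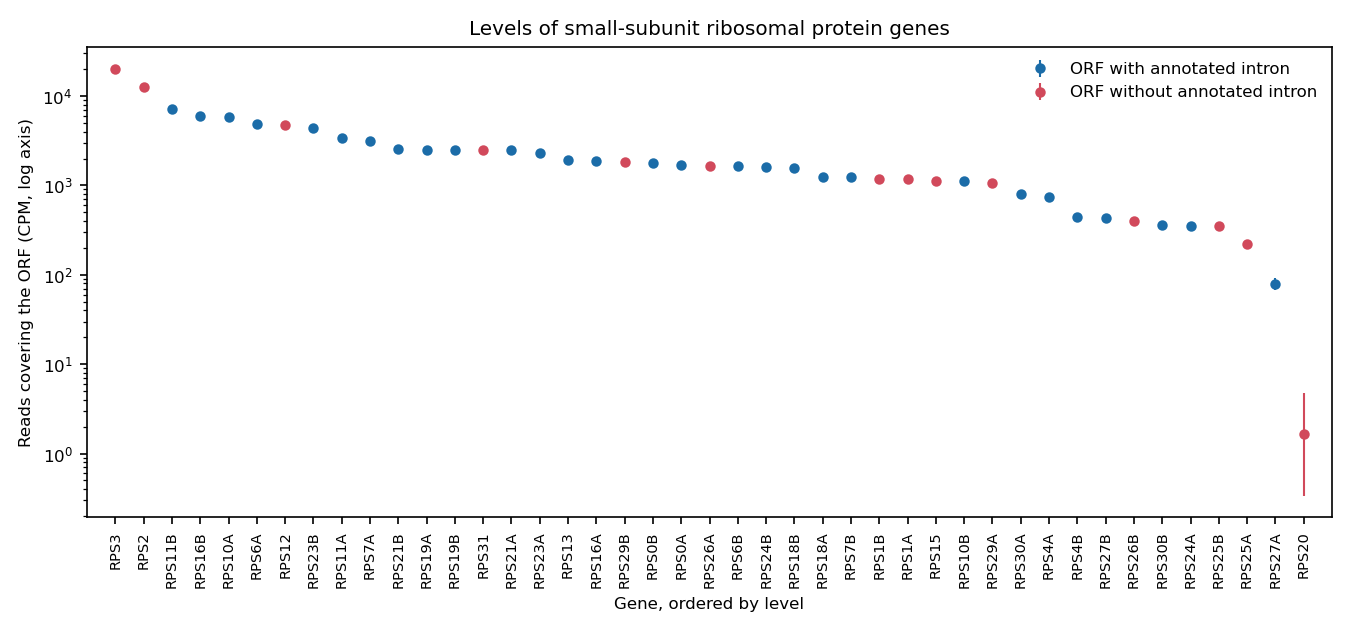
CPM of covering reads on a log axis for 43 of the 48 genes, ordered by level, with exact Poisson 95% intervals as bars (mostly smaller than the points) and colour for an annotated intron in the ORF. RPS3 (20188 CPM) and RPS2 (12465 CPM) stand above all others, and RPS20 lies far below the rest.

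The copies of a pair often differed in level. Among the 20 pairs, 10 differed by more than 2-fold in covering reads, beside 73.2% (30 of 41) of the other gene pairs named A and B. By the same count 5 differed by more than 4-fold. The median fold was 1.98, against 2.72 in the 33 large-subunit pairs. Exact binomial intervals of the read split excluded equal levels in 16 pairs. Copy B was the higher in 13 pairs and copy A in 7. Coding sequences of a pair were identical at 84.3 to 99.2% of positions (median 94.2%), and the 30-base tags at the most used start and end occurred once in the genome for all 48 genes.

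RPS27, a zinc-binding protein of the body, had 797 reads from copy B and 145 from copy A, a fold of 5.50 (4.60 to 6.61). In RPS10 the direction was opposite, with 10718 reads from copy A and 2055 from copy B, a fold of 5.22 (4.97 to 5.47). RPS24 had 2928 reads from copy B and 651 from copy A, which is 4.50-fold. RPS26, near the messenger exit, had 3004 reads from copy A and 733 from copy B, which is 4.10-fold. Of these 4 pairs the higher copy was A in RPS10 and RPS26, and B in RPS27 and RPS24. The folds above count covering reads and leave out molecules that start or end inside the ORF. Counting all sense reads, RPS27B had 819 and RPS27A 235, and RPS26A had 3177 and RPS26B 825. On that count both pairs were under 4-fold.

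A second set of pairs lay between 2-fold and 4-fold. RPS16B exceeded RPS16A (1867 CPM) 3.24-fold, and RPS6A exceeded RPS6B (1630 CPM) 2.98-fold although these 2 coding sequences were 99.2% identical. RPS7A had 3159 CPM and RPS7B 1244 CPM, a fold of 2.54. RPS30A had 793 CPM and RPS30B 356 CPM, a fold of 2.23 that leaves out the many RPS30B molecules starting inside the ORF, described below. Counting all sense reads, RPS30A had 1573 and RPS30B 1520, a fold of 1.03, which ends the 2-fold difference. RPS11B exceeded RPS11A 2.09-fold. Under 2-fold, RPS23 (decoding centre), RPS29, RPS4, RPS25 and RPS18 differed by 1.87, 1.74, 1.69, 1.60 and 1.26-fold.

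For 4 pairs the interval included equal levels. RPS1B had 2190 and RPS1A 2176 reads, a fold of 1.01 (0.948 to 1.07). RPS19, whose human counterpart is mutated in Diamond-Blackfan anaemia, had 4605 reads from copy A and 4551 from copy B. RPS21 had 4690 reads from copy B and 4541 from copy A. RPS0, which sits beside RPS21 in the subunit, had 3273 reads from copy B and 3127 from copy A.

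**Figure D2:**
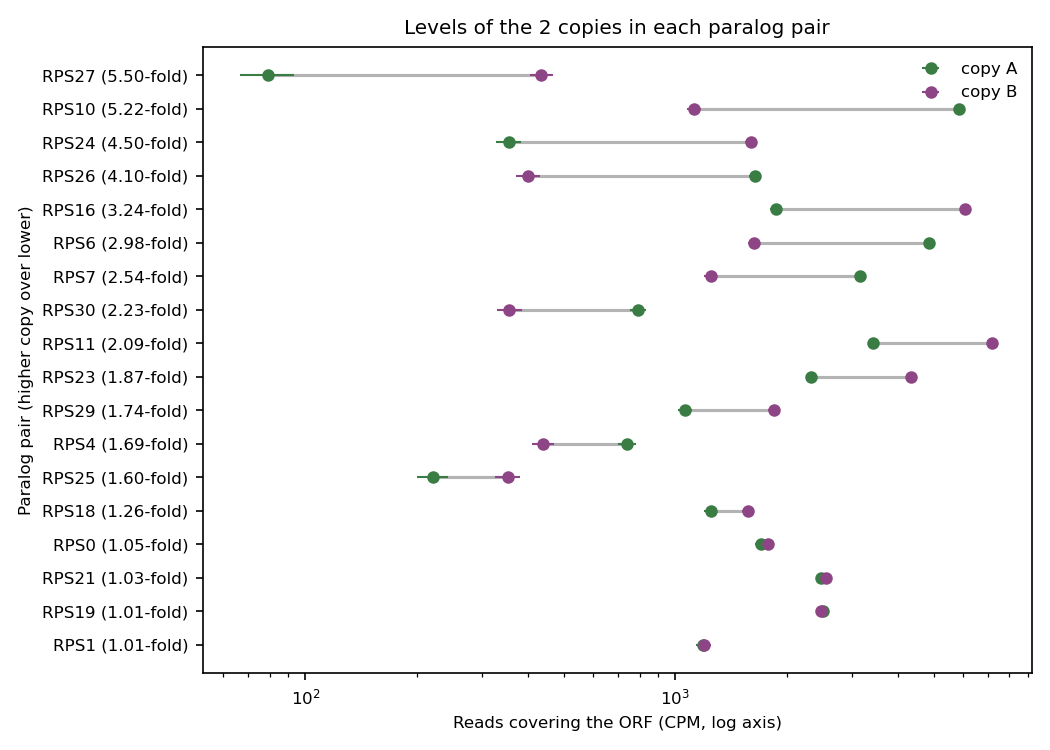
CPM of copy A and copy B on a log axis for 18 of the 20 paralog pairs, ordered by the fold between the higher and the lower copy, with exact Poisson 95% intervals. The 4 lowest pairs overlap, and the RPS27 copies lie farthest apart among those plotted.

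Genes with an intron in the ORF had a median of 1705 CPM (31 genes, 79.1 to 7156) and genes without one a median of 1187 CPM (17 genes, 1.64 to 20188), a ratio of 1.44. The ranges overlap, and the 2 highest and the lowest member have no intron. Leaving out 5 genes without an intron whose molecules mostly start far upstream, the median of the remaining 12 was 1742 CPM and the ratio was 0.979, so the order of the medians rests on those 5 genes. Without ends before A-rich genome sequence the ratio was 1.10. Inside the intron group, the 10 genes whose first coding exon has 6 or fewer bases had a median of 614 CPM, against 2329 CPM in the 21 genes with a longer first exon. Spearman's rho between first exon length and CPM over the 31 genes was 0.512. CPM leaves out molecules that start inside the ORF. Pooled, these were 7.03% of sense reads in the 10 genes with a short first exon and 3.06% in the other 21. RPS30B had 653 covering of 1520 sense reads, and RPS27A had 145 of 235. Whether the difference in medians and the rho hold on sense reads was not tested. Coding length had a rho of 0.314 with CPM over the 48 genes.

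Leaders were short in most members. The median distance from start site to start codon was 30 bases over the 47 genes with at least 20 covering reads, beside 25 bases in the large-subunit genes and 40 bases in the other ORFs. Genes with an intron had a median of 28 bases (range 14 to 45) and genes without one 39 bases (range 7 to 530). Leaving out the 5 genes that mostly start far upstream, the remaining 11 without an intron also had a median of 28 bases. RPS11A had one of the shortest leaders at 14 bases, while RPS3, RPS11B and RPS27A shared a median of 18 bases. The longest were RPS29A at 530, RPS25B at 468 and RPS26B at 420 bases. These are distances on the genome and would include any spliced stretch.

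The use of a start ranged from tight to broad. RPS1B placed 87.1% of its covering reads on 1 start base, 26 bases before the start codon, and RPS3 placed 71.0% on the base 18 before it. RPS21B and RPS25A put 14.3% and 13.3% on their most used base. A second start more than 20 bases from the first held over 10% of reads in 13 of the 47 genes, near the background of 31.2% (737 of 2364) of the other ORFs. RPS2 used a start at 98 bases for 7163 reads (31.3%) and another at 22 bases for 4711 reads (20.6%), and further starts at 26 and 30 bases took 12.6% and 9.85%. RPS10B split between 53 bases (26.5%) and 32 bases (24.1%), RPS6A between 29 bases (30.5%) and 73 bases (20.8%), and RPS30A between 19 bases (20.4%) and 43 bases (19.9%).

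**Figure D3:**
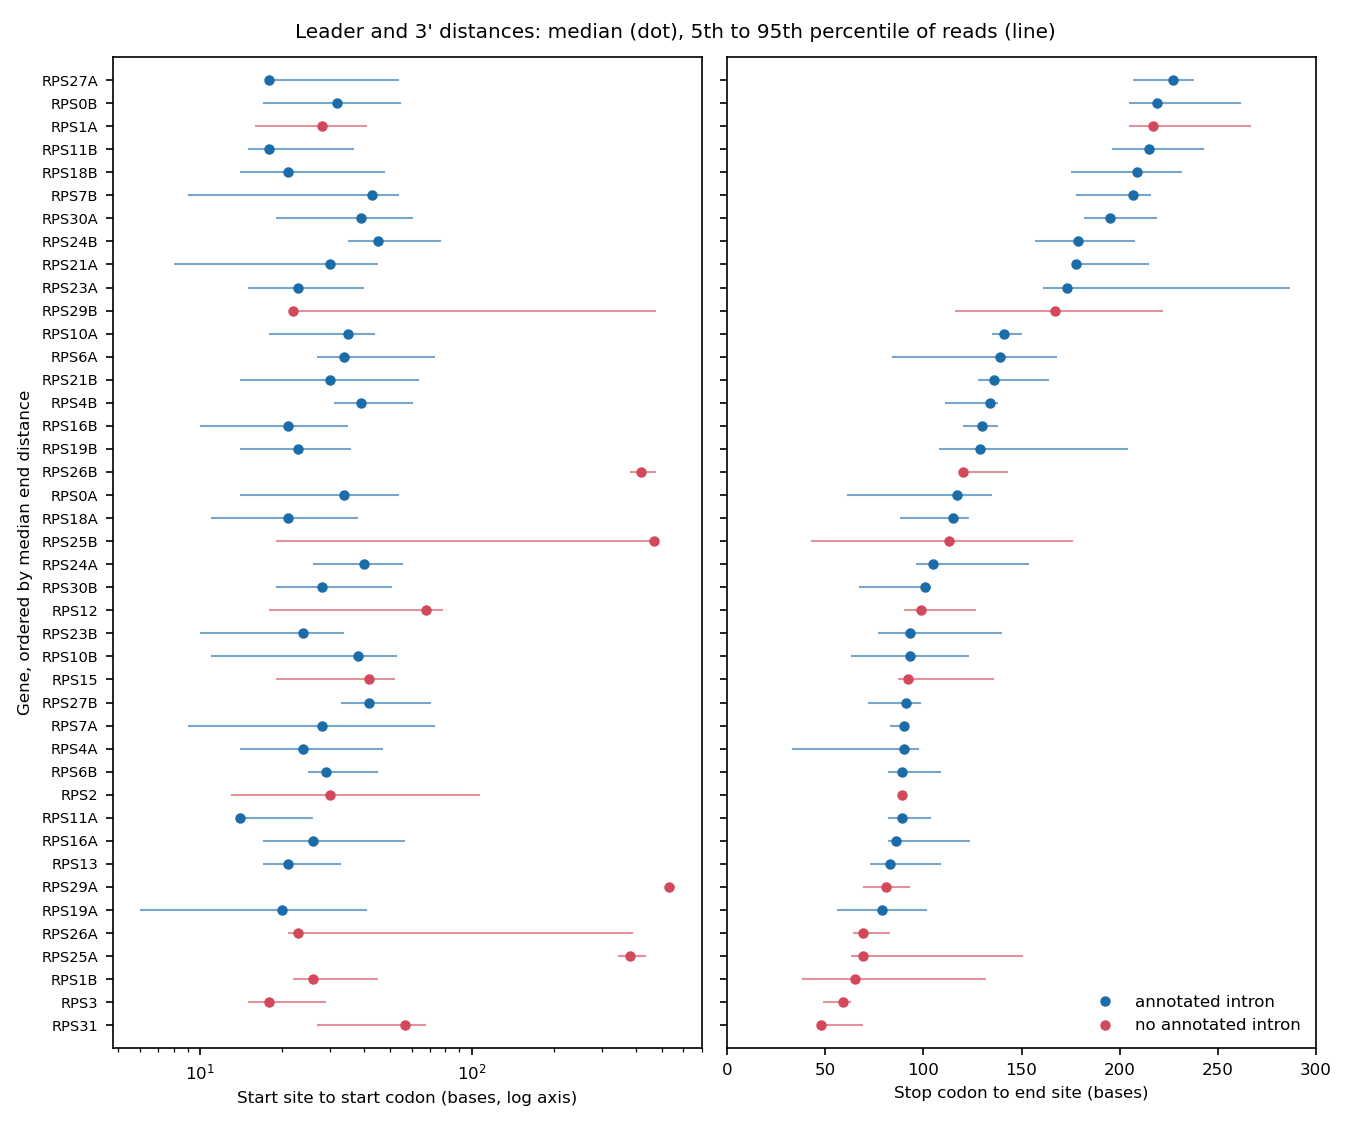
Distance from start site to start codon (left, log axis) and from stop codon to end site (right) in 42 of the 47 genes with at least 20 covering reads, as the median over reads (dot) and the 5th to 95th percentile of reads (line). Most leaders lie below 50 bases, and RPS29A, RPS25B, RPS26B and RPS25A stand apart at 383 to 530 bases.

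Far starts were frequent in some genes without an annotated intron. In 5 of 47 members, RPS29A, RPS26B, RPS25A and RPS25B among them, over 50% of covering reads began 200 or more bases before the start codon. All 5 were among the 16 members without an intron that had at least 20 covering reads. The same held for 4 of 24 large-subunit genes without an intron and for 3.6% (85 of 2364) of the other ORFs. The share was 99.6% in RPS29A, 99.5% in RPS26B, 97.8% in RPS25A and 93.7% in RPS25B. The partners of the first 2 differed: RPS29B had 34.6% far starts (33.1 to 36.3) and RPS26A 5.93%. The 2 copies of RPS29 and of RPS26 thus had unequal shares of mapped far starts, with counting intervals that do not overlap. Whether the placement of starts added to this difference was not tested.

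Letters of a splice donor, GTATGT, followed by those of a branch point, TACTAAC, were searched on the gene's strand in the 600 bases before each start codon. They stood in this order in 7 of the 17 members without an intron in the ORF and in 0 of the 31 with one. They did so in 3 of 24 (12.5%) large-subunit genes without an intron and in 0.638% of the other ORFs. RPS25A, RPS26A, RPS26B, RPS29A and RPS29B are among the 7; RPS25B holds the donor letters 436 bases before its start codon without the branch letters. The annotation used lists no intron in a leader, so a match is only a description of letters. Stretches of 4 of these genes follow with the motif in capitals.
RPS29A donor (chrXII:898146-898175, plus strand): gtgtaaattaggGTATGTaccaagttctat
RPS29A branch (chrXII:898614-898643, plus strand): atttgTACTAACaacgtttcctattattgc
RPS29B donor (chrIV:341202-341231, minus strand): ctatagctaaatGTATGTggaaacgcggat
RPS29B branch (chrIV:340830-340859, minus strand): tataaTACTAACatttttctattcaatttt
RPS25A donor (chrVII:534768-534797, minus strand): gttagttttagtGTATGTatctataaattt
RPS25A branch (chrVII:534487-534516, minus strand): tttttTACTAACaagtatgtttttactttt
RPS26B donor (chrV:423579-423608, plus strand): caaacaggaaaaGTATGTtataagagcgaa
RPS26B branch (chrV:423908-423937, plus strand): ctcttTACTAACttcaatttactgaatttg
Far starts lay upstream of the donor letters in 92.7 to 99.7% of far reads in the 6 genes named RPS25, RPS26 and RPS29.

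Near starts in RPS26A and RPS29B fell on few bases and in an unusual base context. RPS26A placed 2411 reads on 1 base 23 bases before the start codon and RPS29B 1864 reads on the base 22 before it. Both sites lie between the branch letters and the start codon. At near starts of RPS29B, 13.96% of reads had a pyrimidine before the start and 2.35% began with a purine, against 88.0% and 88.0% at its far starts. RPS26A differed in the preceding base, with a pyrimidine before 1.27% of near and 80.3% of far starts. Whether splicing of a leader intron shifts the mapped start in these genes was not tested.

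Because each read pairs a start with an end, the ends of near and far molecules can be set side by side. In RPS29B the most used end, 167 bases after the stop codon, took 77.9% of near and 70.2% of far reads. In RPS26A the end at 69 bases took 66.5% and 63.5%. Near and far molecules of each gene had the same median end, at 167 and 69 bases.

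Molecules that start inside the ORF and run past its stop codon (late starts) were 9155 of 235355 sense reads, or 3.89% (3.81 to 3.97). The share was 12.6% pooled over the other ORFs and 5.57% in large-subunit genes. Median coding length was 435 bases in members, 468 in large-subunit genes and 1206 in the other ORFs, and late shares were not matched on length. A late share over 20% was seen in 2 of 47 members with at least 50 sense reads, beside 42% (997 of 2373) of the other ORFs. Those 2 were RPS30B with 866 of 1520 reads (57.0%, 54.5 to 59.4) and RPS27A with 90 of 235 (38.3%, 32.3 to 44.7). Both have a first coding exon of 3 bases, the start codon alone.

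RPS30B alone gave 781 of the late starts near the end of an intron. In the 31 intron genes 1459 of 4871 late reads (29.95%) began within 15 bases of that point. The share was 74.3% (1211 of 1630) in the 10 genes with a first coding exon of 6 or fewer bases and 7.65% (248 of 3241) in the other 21. Without RPS30B the share was 16.9% (678 of 4005) over 30 genes and 56.3% (430 of 764) in the 9 with a short first exon. Such starts exceeded 5% of sense reads in 3 members of 31, RPS30B and RPS27A among them, beside 7.5% (12 of 160) of other intron-containing ORFs. The 4 stretches below end 10 bases into the second exon, and the capital marks the most used late start.
RPS30B (chrXV:678370-678399, minus strand): ttttttcaaaTtctccttaggctaaagttc
RPS30A (chrXII:712716-712745, minus strand): tattaatatTatttatttaggctaaagttc
RPS24B (chrIX:231948-231977, minus strand): attcattttaTtttttatagtctgacgctg
RPS27A (chrXI:158947-158976, plus strand): ttcttattcgtctacaacaGgttttagttc
In each of them the marked base lies within the intron. RPS30B had 584 reads on the base 10 before the second exon, RPS24B had 96 at the same distance and RPS30A had 37 on the base 11 before it. RPS27A had 79 reads on the last base of the intron.

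The base context of these starts varied between genes. Of the 781 RPS30B reads near the intron end, 17.03% had a pyrimidine before the start and 9.35% began with a purine, against 86.7% and 67.5% of its 653 covering reads. All 79 such reads of RPS27A began with a purine, and 0 had a pyrimidine before it. In RPS30A 69.3% of 75 such reads had a pyrimidine before the start and 2.67% began with a purine, and in RPS24B these were 11.8% and 4.55% of 110 reads. For the 3′ ends, RPS30B used its main end for 42.6% of these and 38.7% of covering reads, with a median end 101 bases from the stop codon in both. RPS27A had a median of 227 bases in both and used its main end for 29.1% and 17.9%. The median end was 208 against 195 bases in RPS30A and 187 against 179 bases in RPS24B. How the authors placed starts in reads that cross an intron is not given in the sources used here, and its part in these values was not tested.

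**Figure D4:**
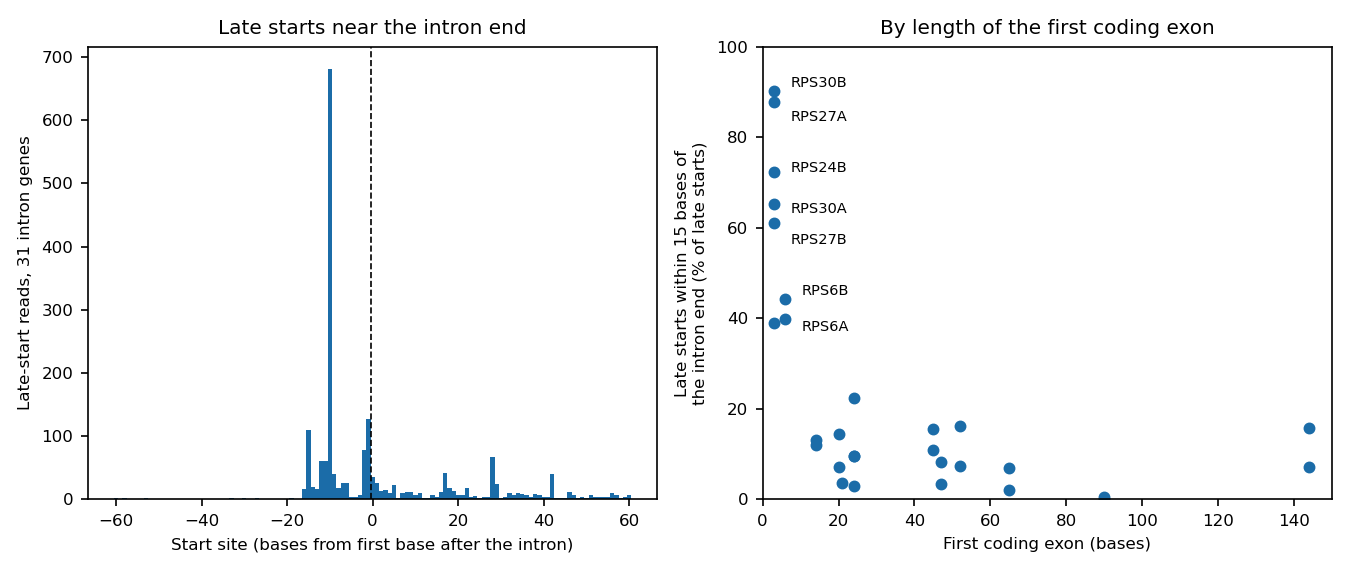
Left, late-start reads of the 31 intron genes by distance from the first base after the intron (dashed line at the boundary); right, percent of each gene's late starts within 15 bases of the intron end against the length of its first coding exon in bases (29 genes). The tallest bar is 10 bases before the second exon, and RPS30B (90.2%) and RPS27A (87.8%) lead among genes with a 3-base first exon.

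The copies of a pair mostly began at like distances and ended at different ones. The median start distance of the 2 copies differed by a median of 5 bases and by 10 or fewer in 12 of 20 pairs. Median end distances differed by a median of 67 bases, by 10 or fewer in 0 pairs and by over 50 in 12 pairs. Neither difference was set beside that of other gene pairs, so whether it is particular to these pairs was not tested. RPS27A ended 227 bases and RPS27B 91 bases after the stop codon, RPS1A 217 and RPS1B 65 bases, and RPS11B 215 and RPS11A 89 bases. The higher copy had the longer distance in 11 of 20 pairs.

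Over the 47 genes the median end distance was 110 bases (48 to 227), beside 99 bases in large-subunit genes and 119.5 in the other ORFs. Genes with an intron had a median of 121 bases and those without 90.5 bases, with overlapping ranges. RPS27A (227), RPS0B (219) and RPS1A (217) had the longest and RPS31 (48) and RPS3 (59) the shortest. RPS7A placed 82.0% of reads on 1 end base and RPS31 81.5%. A second end more than 20 bases away held over 10% of reads in 17 of 47 genes, near the 34.2% (808 of 2364) of the other ORFs. RPS30B used ends at 102 and 67 bases for 38.7% and 34.3% of covering reads, RPS0A ends at 74 and 133 bases for 32.5% and 23.1%, and RPS13 ends at 78 and 107 bases for 22.5% and 19.5%.

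Some ends lay just before A-rich genome sequence, meaning at least 6 A in the next 10 bases. This was so for 97.4% of covering reads in RPS7A, 84.7% in RPS21B, 71.1% in RPS24B and 67.8% in RPS26B, against a median of 5.73% over the 47 genes. Whether priming on such sequence added to these ends was not tested.

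Members had many isoforms. Perplexity, the number of equally used isoforms that would give the same diversity, had a median of 70.8 over 47 genes, beside 49.8 in large-subunit genes and 35.9 in other ORFs with at least 100 reads. It was 76.8 in genes with an intron and 42.8 in genes without one. Within the latter, the median was 88.1 in the 5 genes with mostly far starts and 24.9 in the other 11. RPS4A (179) and RPS19B (169) were among the most diverse, and RPS26A (11.2) and RPS11A (20.3) among the least. A single isoform made up 52.1% of RPS26A reads and 5.31% of RPS21B reads. Perplexity was not matched on read number, which was higher in members. Ends were more dispersed than starts in 23 of 47 genes, near the 53.8% (633 of 1176) of other ORFs. RPS1B had a perplexity of 2.10 for starts and 18.4 for ends, and RPS7A the reverse, with 18.3 for starts and 2.36 for ends.

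Early ends, where a molecule starts upstream and ends inside the ORF, were rare: 170 of 235355 sense reads, or 0.0722% (0.0622 to 0.0839). The pooled share was 3.63% over other ORFs and 0.573% in large-subunit genes. Large-subunit genes with an intron held 1706 of the 1753 early reads of their group, and the largest share of a gene was 24.8%. Their pooled share was 0.786%, against 0.0530% in large-subunit genes without an intron. In members these shares were 0.0952% with an intron and 0.0443% without. Median shares over genes with at least 50 sense reads were 0.0264% in members and 0.0626% in large-subunit genes. Early shares were not matched on coding length, which had a median of 435 bases in members and 1206 in other ORFs. No member of 47 passed 5%, beside 19.8% (471 of 2373) of other ORFs. No early read at all was found in 18 of the 47 members, near the background of 40.7% (965 of 2373) of other ORFs. Requiring at least 2 or at least 5 reads per isoform lowered the pooled share to 0.0260% and 0.0173%, and without RPS0A it was 0.0448%. Of the 170 reads, 106 ended inside an intron. RPS0A had 66 early ends (1.94%, 1.53 to 2.46), of which 60 lay in its intron, while its partner RPS0B had 3. RPS26B had 9 (1.09%). RPS3 had 29 early ends, of which 25 lay before A-rich sequence.

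Reads on the other strand were counted only from isoforms that overlapped no ORF and no noncoding gene on their own strand. Transcripts of annotated neighbouring genes were therefore left out. Such reads that began within 500 bases upstream of a member numbered 346. They exceeded 50 at 3 members, RPS13 (100), RPS3 (64) and RPS27A (52), beside 5.12% (121 of 2364) of the other ORFs with at least 20 covering reads. A share of 3 in 47 is near that background. Antisense reads under the same restriction numbered 144 in all, of which 64 lay at RPS26B and 26 at RPS7B.

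Upstream letters were searched in the 400 bases before each start codon on both strands. The Rap1 core ACCCNNACA was present in 13 of 48 members (27.1%), in 39.5% of large-subunit genes and in 4.18% of the other ORFs. It was found in 11 of 31 genes with an intron and in 2 of 17 without one. RPS2, RPS11B, RPS16B and RPS10A among the highest members have it, and RPS3 does not. The Abf1 core TCANNNNNNACG was present in 8 members (16.7%), against 18.9% of the other ORFs. Neither was found in 29 members, which says only that these letters are missing from this window.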

How the data were processed

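The authors deposited whole-number read counts per start and end pair, pooled over 4 libraries in 1 column, so library depths are unknown and samples could not be compared by a test. The tools named are Novoalign 2.07.10 and CASAVA, with build R64, per the submitters' processing notes. What each did, and whether PCR copies were collapsed, is not given in the sources used here. Members and gene lists were chosen with earlier results of these data known. Isoforms were placed on 6002 ORFs of the R64 RefSeq annotation by strand (Python 3.11.15, pandas 2.3.3, numpy 2.4.6, scipy 1.17.1), and the placement was tested on simulated data. Of 425462 isoforms 306967 had 1 read. Leader and end distances needed at least 20 covering reads, early and late shares 50 sense reads and isoform diversity in other ORFs 100 reads. Intervals are Wilson for shares, exact Poisson for CPM and exact binomial for pairs; they cover counting error only, because reads may not be independent molecules. Named genes were the 10 highest and 5 lowest members, the 5 widest and 3 narrowest pairs, the 3 extremes of each distance, share and diversity, members without introns, and those with few covering or many divergent reads. Some members enter the counts and medians but are not reported by name here. Other members named were chosen after their values were seen. The upstream letter searches, start context, and intron-end and far-start classes were also defined after the data were seen. Sequences came from the R64 reference.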

Additional observations from a re-analysis of the deposited data

How the results depend on the processing

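Of 35 alternatives, 11 gave the reported value within its counting interval, to 3 digits or, for counts, within 1.5 times, 23 moved and 1 turned the direction. With at least 2 reads per isoform, the members' read share was 14.2% (12.3% as reported), the intron to no-intron ratio of median CPM 1.46 (1.44), early ends 0.0260% (0.0722%), late starts 2.37% (3.89%) and the top isoform 13.8% (13.0%). With at least 5 reads these were 15.4%, 1.49, 0.0173%, 1.53% and 16.5%. Without ends before A-rich genome the share was 12.9%, the ratio 1.10, the end distance 108 bases (110) and the top isoform 12.3%. Counting any overlap gave a share of 12.8% and a ratio of 1.47. Each isoform counted once gave 32 bases to the start codon (30) and 113 past the stop codon. Sites merged within 20 bases gave a top isoform of 99.4%, since neighbouring sites chain together. Added after seeing the data, the ratio turned to 0.979 without the 5 members with mostly far starts and was 1.43 without RPS20, early ends were 0.0448% without RPS0A, and late starts were 3.54% without RPS30B and 3.29% without starts near the intron end. The cause of the other shifts was not tested. Pairs past 2-fold stayed between 9 and 11. No paired analysis was possible because the file holds 1 pooled column, and leaving out each culture or preparation was not run for the same reason. Depth limits RPS20, with 3 covering reads, and the late share of RPS27A.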

Other observations

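Molecules that covered more than 1 ORF on the strand were rare at these genes. RPS26A had 165 such reads and RPS10B had 12, and no other member had more than 3.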
